A study of Mus musculus with 12 samples.

Results

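Aff1 and Cep85l are 2 mouse genes that were picked because their RNA was higher after treadmill training in young muscle and not in old muscle. Aff4, a relative of Aff1, and the elongation factor genes Ell and Ell2 were added from the same protein complex, for contrast. The 5 genes stand among 49315 genes in the files and 15304 genes tested. Since the values of Aff1 and Cep85l in these libraries chose them, their levels and differences are given as a description, with no test. Aff4, Ell and Ell2 were named for their place in the complex, by a rule that does not use their values, and carry tests, although earlier results of these data were known when they were named.

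RNA of the quadriceps femoris, the large extensor muscle at the front of the thigh, was sequenced from C57BL/6 mice, an inbred laboratory strain, in 4 groups of 3 libraries. Young sedentary mice (replicates 1, 2 and 3) were 18 weeks old and did no regimented running. Young exercised mice (replicates 7, 8 and 10) were of the same age and trained over 8 weeks, running on a treadmill in 3 weekly sessions of 40 minutes while the belt speed was raised from 8 to 12 m/min. Old sedentary and old exercised mice (replicates 4, 5 and 6 of each) were 28 months old and had the same 2 regimens. The title of the series names ARNT, a partner of hypoxia-inducible factors, but no label gives any of these groups a genotype other than the strain, and none gives a sex.

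AFF1 and AFF4 are related scaffold proteins of the super elongation complex, which brings together an ELL factor and the kinase P-TEFb (CDK9 with a cyclin T) at genes where RNA polymerase II has paused shortly after starting. P-TEFb phosphorylates the polymerase and its pausing factors, the polymerase is released, and ELL or ELL2 raises its rate of elongation. The complex is best known for rapid induction of stress and growth factor genes, and AFF1 also for its fusion with KMT2A in acute leukaemia. CEP85L is a coiled-coil protein of the centrosome, the microtubule organising centre, and changes in its gene are a known cause of the brain malformation lissencephaly.

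Total counts per library were 23.3 to 27.6 M. Levels are given as CPM, counts scaled to a common library size, after TMM (trimmed mean of M values) normalisation. The markers of muscle fibres (Acta1, Ckm, Myh4, Ttn and 5 others) were detected in every library, as the label of the tissue has it. Markers of other tissue stood high in single libraries: Krt5, a keratinocyte gene, was at 137 CPM in young sedentary replicate 2 and at most 0.202 CPM in the other libraries, and Adipoq, an adipocyte gene, was at 138 CPM in young sedentary replicate 1 and 104 CPM in old exercised replicate 6. The slow fibre gene Myh7 ranged from 1.09 to 635 CPM among the young sedentary libraries. Xist exceeded the Y-linked Ddx3y in 2 libraries of each young group, in 1 old exercised library and in 0 old sedentary ones, so this signal of sex differed within and between groups.

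The files place Aff1 (ENSMUSG00000029313) on chromosome 5 from 103692374 to 103855322 on the plus strand of GRCm38, with 9458 bp of exon in 23 merged blocks. Cep85l (ENSMUSG00000038594) lies on chromosome 10 from 53278081 to 53379851 on the minus strand, with 2691 bp in 13 blocks. Aff4 (ENSMUSG00000049470) is on chromosome 11 from 53350833 to 53421830, Ell (ENSMUSG00000070002) on chromosome 8 from 70539457 to 70592858 and Ell2 (ENSMUSG00000001542) on chromosome 13 from 75707484 to 75772356, all on the plus strand. None of the 5 shared an exon base with another gene. Pln, the gene of phospholamban, a regulator of the calcium pump of slow fibres and heart, lies within the span of Cep85l on the opposite strand, from 53337686 to 53345999. The exons counted for Aff1, Aff4 and Ell were the whole of those in the GENCODE vM21 annotation of the same build, but those counted for Cep85l covered 33.7% and those for Ell2 37.1% of the vM21 exon bases. Levels per kb of exon were computed over the counted exons.

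The bases before the start sites of Aff1 and Cep85l are shown because their RNA differed with training in young muscle, and those of Aff4 because it is the paralog of Aff1 with little difference. They come from the RefSeq promoter table of GRCm38.p6, 5′ to 3′ on the strand of the gene. Those of Aff1 and Aff4 end at the base before a listed start site, and that of Cep85l stops 64 bases short of its start site. Aff1 has its printed window at chr5:103753912-103754161 (250 bases, plus strand), Cep85l at chr10:53379948-53380133 (186 bases, minus strand, without the 64 bases next to the start site, which vM21 places in exons) and Aff4 at chr11:53350517-53350766 (250 bases, plus strand). The Aff1 window lies inside the counted span of the gene, which begins upstream at 103692374, so it precedes an internal start site and not the first counted exon. Capitals mark matches, on either strand, to 7 motifs: ACGTG (core of the element bound by hypoxia-inducible factor with ARNT), CACGTG (E-box), TGACG (CREB), AGGTCA (nuclear receptors), GGGCGG (Sp factors), TATAAA (a core promoter box) and AGAACA (glucocorticoid receptor). CACGTG holds ACGTG on both strands, so each match to it also counts as a pair of ACGTG matches.
Aff1: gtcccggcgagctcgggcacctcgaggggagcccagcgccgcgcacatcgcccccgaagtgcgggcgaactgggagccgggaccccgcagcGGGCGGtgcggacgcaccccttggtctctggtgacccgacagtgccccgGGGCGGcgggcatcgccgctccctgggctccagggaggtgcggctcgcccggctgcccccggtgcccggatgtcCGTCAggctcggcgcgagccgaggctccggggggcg
Cep85l: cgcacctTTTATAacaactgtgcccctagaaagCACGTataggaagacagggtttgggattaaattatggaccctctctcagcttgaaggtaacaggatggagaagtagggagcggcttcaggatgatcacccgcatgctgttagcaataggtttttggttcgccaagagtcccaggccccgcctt
Aff4: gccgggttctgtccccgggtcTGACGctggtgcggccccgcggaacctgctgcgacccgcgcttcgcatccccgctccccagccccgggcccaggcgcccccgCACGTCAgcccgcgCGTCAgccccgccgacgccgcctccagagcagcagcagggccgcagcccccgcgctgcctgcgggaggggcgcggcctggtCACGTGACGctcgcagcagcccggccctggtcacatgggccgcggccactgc

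The Aff1 sequence held GGGCGG 2 times, TGACG 1 time and no ACGTG. The Cep85l sequence held ACGTG 1 time and TATAAA 1 time, and its whole window of 250 bases also held GGGCGG 2 times. The Aff4 sequence held ACGTG 3 times, CACGTG 1 time and TGACG 4 times. AGGTCA and AGAACA had no match in any of the 3. Among 32851 promoter windows of 250 bases in the table, 16.6% held ACGTG, 6.02% CACGTG, 17.8% TGACG, 14% AGGTCA, 32.7% GGGCGG, 12.4% TATAAA and 16.1% AGAACA. Aff1 has another listed start site at 103754573, whose window is not printed. No motif was held by all 3 printed sequences, and a match is a description of the letters only.

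Aff1, the scaffold gene, was at 49.9, 56.5 and 53.1 CPM in young sedentary replicates 1, 2 and 3 and at 101, 94.6 and 105 CPM in young exercised replicates 7, 8 and 10. It was at 71.5, 61.6 and 62 CPM in old sedentary replicates 4, 5 and 6 and at 63.3, 72.8 and 59.7 CPM in the old exercised replicates of the same numbers. The 3 young exercised libraries were the highest of the 12 and the 3 young sedentary ones the lowest, while the old groups lay between them and overlapped each other. Group means ± SD (n = 3) were 53.1 ± 3.3, 100.5 ± 5.42, 65.1 ± 5.59 and 65.3 ± 6.74 CPM for the groups in the order of these sentences. The raw counts behind these levels were 1232 to 2491 per library.

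The fitted log2 difference of Aff1 with training was 0.92 ± 0.0936 (SE) in young muscle, or 1.89-fold, and 0.00 ± 0.0929 in old muscle. The old response minus the young one was -0.91 ± 0.132. These are the values that chose the gene. As background to this comparison, 2 of the 15304 genes, or 0.0131%, passed an adjusted p of 0.05 in edgeR's quasi-likelihood test, and nothing about Aff1 or Cep85l is read from that count. It moved both ways as single libraries were left out: 0 without young sedentary replicate 1 or young exercised replicate 10, 1 higher and 1 lower without young sedentary replicate 3, 3 higher without young exercised replicate 8, 6 higher and 1 lower without young exercised replicate 7, and 20 higher and 13 lower without young sedentary replicate 2, the library with high Krt5. The log2 difference of Aff1 stayed between 0.88 and 0.96 as each of the 6 young libraries was left out. Scaling by plain library totals gave Aff1 0.79, with the median of all genes moved from -0.01 to -0.14.

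Cep85l, the centrosome gene, was at 13.2, 9.18 and 12.9 CPM in the young sedentary and at 42.3, 30.3 and 30.4 CPM in the young exercised libraries, in the order of their numbers. Its levels were 18, 22.4 and 15.5 CPM in the old sedentary and 17.4, 15.5 and 19.2 CPM in the old exercised libraries. As for Aff1, every young exercised library exceeded every old one, every old one exceeded every young sedentary one, and the old groups overlapped. The means ± SD (n = 3) were 11.7 ± 2.23, 34.3 ± 6.92, 18.7 ± 3.48 and 17.4 ± 1.84 CPM in the order given above, from 235 to 1013 counts per library. Young exercised replicate 7 was the highest of all.

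For Cep85l the log2 difference with training was 1.55 ± 0.185 (SE) in young muscle, or 2.92-fold, and -0.10 ± 0.181 in old muscle, and the responses differed by -1.65 ± 0.258. Leaving out each young library in turn gave 1.37 to 1.64 in young muscle. Pln, within the Cep85l span, had 27 to 166 counts per library and a log2 difference of -0.59 in young muscle (edgeR adjusted p = 0.694). The neighbouring genes of Cep85l did not pass the test in young muscle either: Slc35f1, 166 kb away, had a log2 difference of -0.50 (edgeR adjusted p = 0.644) and Mcm9, 156 kb away, -0.01 (edgeR adjusted p = 0.997). Beside Aff1, Klhl8, 6.65 kb away, had a log2 difference of -0.01 (edgeR adjusted p = 0.982) and Slc10a6, 63 kb away, 0.50 (edgeR adjusted p = 0.755). Slc35f1, Mcm9 and Slc10a6 were low over all libraries, at 0.386 to 1.55, 0.967 to 2.15 and 0.632 to 2.94 CPM. Only 2 genes, the chosen ones, passed in young muscle, so missing the threshold says little about the neighbours.

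**Figure D1:**
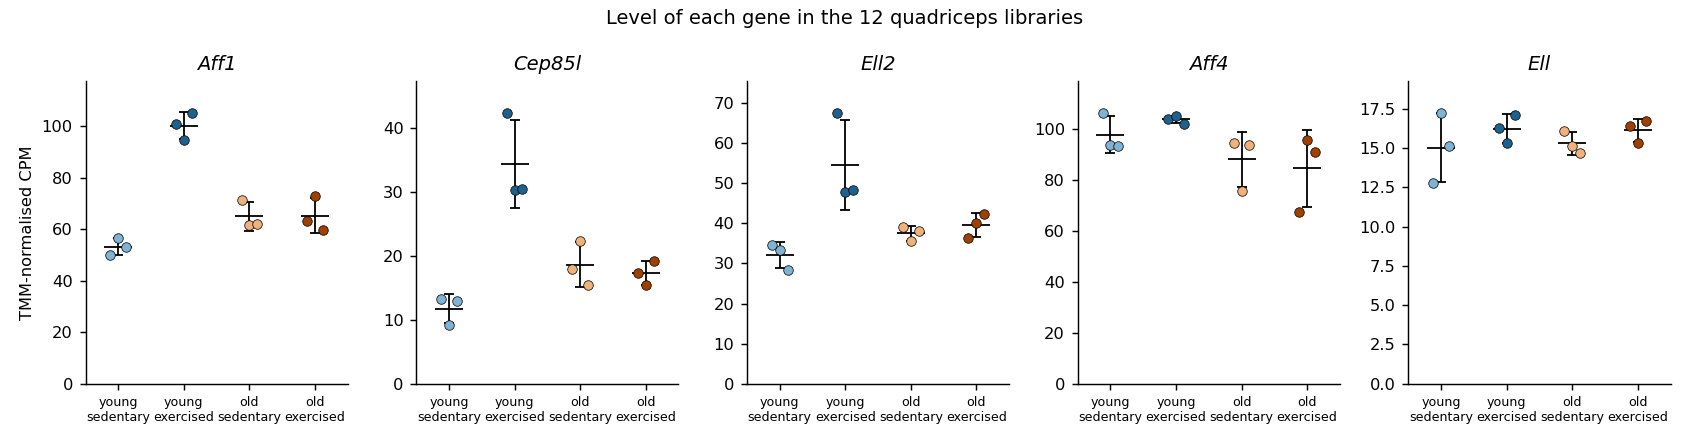
Level of each of the 5 genes in TMM-normalised CPM (vertical axes, from 0 and scaled per gene) in the 12 libraries, by group (horizontal axes); points are libraries, wide bars means and thin bars SD (n = 3). Aff1, Cep85l and Ell2 were highest in the 3 young exercised libraries and lowest in the 3 young sedentary ones, and the groups of Aff4 and Ell mostly overlapped.

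Of 12 lists of cell type markers, 2 also did not overlap between the young groups. For single genes, 9.53% of all were higher in every trained young library. The sum of 9 muscle fibre markers, all detected, was 139483 to 164807 CPM in young sedentary and 174380.4 to 201329.5 CPM in young exercised libraries. It ranged from 151112 to 181939 CPM over the old libraries, which overlapped both young groups. Ttn, among these markers, is also among the genes most like Aff1, given further below. The sum of 5 markers of fibro-adipogenic progenitors, all detected, was 1185 to 1541 CPM and 1623 to 1908 CPM in the young groups. The progenitor sum was 657 to 1004 CPM over the old libraries, below every young one. The endothelial sum was 226 to 295 CPM in young sedentary and 198 to 231 CPM in young exercised libraries, which overlapped. The macrophage sum, at 68.3 to 80.7 and 80.5 to 122 CPM in the same order, overlapped by a small margin. The part of these sums in the values of Aff1, Cep85l and Ell2 was not tested, and in whole muscle more cells of a type and more RNA per cell cannot be told apart. Among the libraries with Xist above Ddx3y alone, Aff1 was at 49.9 to 53.1 CPM in 2 young sedentary and 94.6 to 105 CPM in 2 young exercised libraries, and Cep85l at 12.9 to 13.2 and 30.3 to 30.4 CPM. Every young exercised library exceeded every young sedentary one for both genes, so any part of them must do so too. These values are a description only. Young sedentary replicate 3, with little Krt5 and an Adipoq level of 16.6 CPM, held 53.1 CPM of Aff1 and 12.9 CPM of Cep85l, between those of the other 2 for both genes. That library had the highest Myh7 level of the 12, 635 CPM, and the highest sum of slow fibre markers, 2283 CPM. The young exercised libraries had slow fibre sums of 90.0 to 156 CPM.

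Ell2, an elongation factor of the complex, was at 34.5, 33.4 and 28.3 CPM in young sedentary and 67.4, 47.7 and 48.2 CPM in young exercised libraries. In old muscle it was at 39.2, 35.5 and 38 CPM without training and 36.3, 40.1 and 42.3 CPM with it. Its order over the groups was that of Aff1 and Cep85l: young sedentary lowest, both old groups between and overlapping, young exercised highest, with no overlap at either end. Means ± SD (n = 3) were 32 ± 3.32, 54.4 ± 11.2, 37.6 ± 1.92 and 39.6 ± 3.01 CPM, and young exercised replicate 7 again stood highest.

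The log2 difference of Ell2 with training in young muscle was 0.76 ± 0.131 (SE), or 1.7-fold (95% interval 1.38 to 2.09), and it was higher in every trained library. It did not pass the threshold over all genes (edgeR adjusted p = 0.0754, unadjusted p = 7.97e-05), although 15 alternatives gave adjusted p-values from 0.000149 to 0.237. It passed with DESeq2 (log2 0.77, adjusted p = 0.000149), without the filter on low counts (edgeR adjusted p = 0.0172) and with a term for sex (edgeR adjusted p = 0.0284). Leaving out each young library in turn gave log2 values from 0.58, without young exercised replicate 7, to 0.85. For comparison, 9.53% of all genes were higher in every trained than in every sedentary young library, and 13% had an unadjusted p under 0.05. In old muscle the log2 difference of Ell2 was 0.08 ± 0.13 (1.05-fold, 95% interval 0.855 to 1.3, edgeR adjusted p = 0.915). The difference between the 2 responses was -0.69 ± 0.185 (edgeR adjusted p = 0.14), and it passed only with DESeq2 (adjusted p = 0.0372) among 20 alternatives, whose adjusted p-values reached 0.324.

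Aff4, the other scaffold, was at 106, 93.8 and 93.2 CPM in young sedentary and 104, 105 and 102 CPM in young exercised libraries. Old sedentary libraries held 94.6, 75.7 and 93.6 CPM and old exercised ones 67.4, 95.6 and 90.7 CPM. The training groups overlapped at both ages, and old exercised replicate 4 was the lowest of the 12. Means ± SD (n = 3) were 97.6 ± 7.06, 104 ± 1.66, 88 ± 10.6 and 84.6 ± 15.1 CPM. With training the log2 difference of Aff4 was 0.09 ± 0.125 in young muscle (1.06-fold, 95% interval 0.871 to 1.3, edgeR adjusted p = 0.8) and -0.06 ± 0.125 in old muscle (0.961-fold, 95% interval 0.787 to 1.17, edgeR adjusted p = 0.939). Its sign in young muscle turned under plain library totals (-0.05), and neither value passed the test.

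Ell, the founding member of the ELL family, was at 12.8, 17.2 and 15.1 CPM in young sedentary and 16.3, 15.3 and 17.1 CPM in young exercised libraries. It was at 16.1, 15.1 and 14.7 CPM in old sedentary and 16.4, 15.3 and 16.7 CPM in old exercised libraries. All 4 groups overlapped, and the means ± SD (n = 3) of 15 ± 2.2, 16.2 ± 0.913, 15.3 ± 0.735 and 16.1 ± 0.735 CPM lay within the spread of the young sedentary libraries. The log2 difference with training was 0.11 ± 0.106 in young muscle (1.08-fold, 95% interval 0.911 to 1.28, edgeR adjusted p = 0.694) and 0.08 ± 0.106 in old muscle (1.05-fold, 95% interval 0.889 to 1.25, edgeR adjusted p = 0.889). Under plain library totals the young value was -0.02. The intervals of Aff4 and Ell in young muscle end below the lower bound of Ell2, 1.38-fold, but the difference between genes was not tested.

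**Figure D2:**
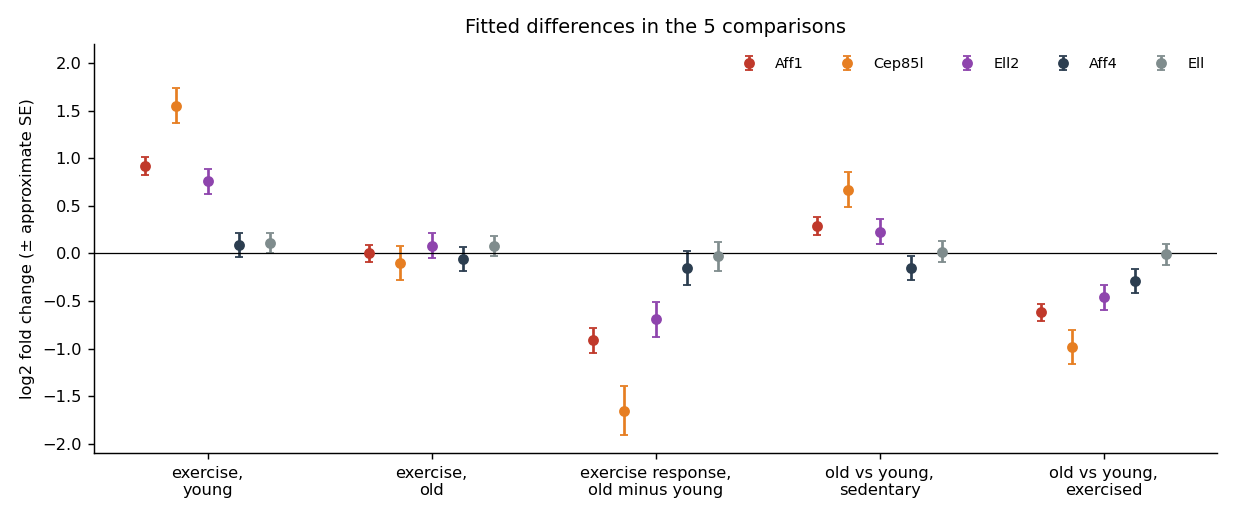
Fitted log2 fold changes (vertical axis, with approximate SE) of the 5 genes in the 5 comparisons (horizontal axis). In young muscle Aff1, Cep85l and Ell2 stood at 0.92, 1.55 and 0.76 and Aff4 and Ell near 0, and with training in old muscle all 5 lay between -0.10 and 0.08; Aff1 and Cep85l were chosen from these values, and the comparisons share groups.

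Per kb of counted exon, the young sedentary means were 5.62 CPM per kb for Aff1, 7.26 for Aff4, 4.84 for Ell, 8.79 for Ell2 and 4.36 for Cep85l. In young exercised muscle they were 10.6, 7.71, 5.23, 14.9 and 12.8 CPM per kb in the same order. Cep85l thus went from the lowest of the 5 to the second highest level per length, and Aff1 from below to above Aff4. The short exon models of Cep85l and Ell2 bear on these levels.

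Within a library, a ratio of 2 genes does not depend on the scaling of the library. The ratio of Aff1 to Aff4 per length was 0.67, 0.856 and 0.81 in young sedentary and 1.39, 1.28 and 1.47 in young exercised libraries. It was 1.07, 1.16 and 0.943 in old sedentary and 1.34, 1.08 and 0.937 in old exercised libraries. Trained and sedentary young libraries did not overlap in this ratio, and the old groups did. Since Aff1 was chosen for a rise in young muscle only and Aff4 differed little, the ratio largely restates that choice. The ratio of Ell2 to Ell was 2.29, 1.65 and 1.6 in young sedentary and 3.52, 2.66 and 2.4 in young exercised libraries, against 2.08, 2 and 2.21 in old sedentary and 1.89, 2.24 and 2.16 in old exercised ones. The young exercised libraries thus had the 3 highest ratios, by a small margin over young sedentary replicate 1. Cep85l to its paralog Cep85, another centrosome gene, was at 0.29 to 0.38 in young sedentary, 0.876 to 1.29 in young exercised, 0.39 to 0.584 in old sedentary and 0.343 to 0.516 in old exercised libraries. This ratio, too, holds a gene chosen from these values and is a description. Cep85 itself had a log2 difference of -0.14 ± 0.119 with training in young muscle (edgeR adjusted p = 0.657).

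**Figure D3:**
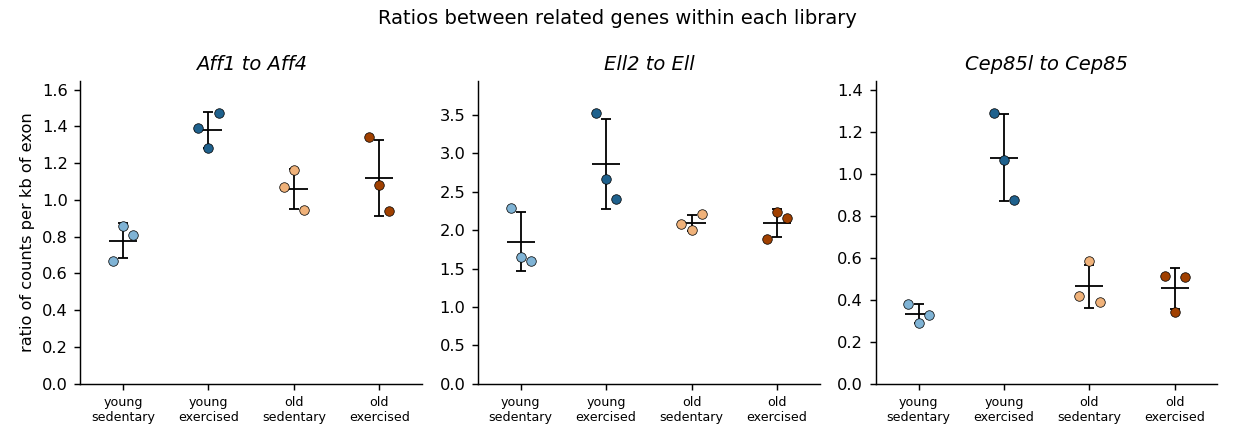
Ratios of counts per kb of exon (vertical axes, from 0) between Aff1 and Aff4, Ell2 and Ell, and Cep85l and Cep85 in each library, by group (horizontal axes), with mean and SD (n = 3). All 3 ratios were higher in every young exercised than in every young sedentary library, and the old groups overlapped in each. Aff1 and Cep85l were chosen for such a difference, so their ratios are a description.

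Other genes of the complex were taken from a list of 13: the AF4 and ELL families other than Aff1, their EAF cofactors, the YEATS proteins Mllt1 and Mllt3, and the P-TEFb genes Cdk9, Ccnt1 and Ccnt2. Of these 11 were tested, and Aff2 and Ell3 were too low. With training in young muscle 0 of 11 passed the edgeR test in either direction. The 2 genes past it there were Aff1 and Cep85l, which the list leaves out, so this 0 was fixed in advance. Of the 11, 2 had an unadjusted p under 0.05 (Ell2 and Eaf1, against 13% of all genes), DESeq2 called 1 and limma voom 0. In old muscle 0 passed with edgeR, DESeq2 and limma voom, 1 had an unadjusted p under 0.05 (8.59% of all genes), and 0.582% of all genes were called with edgeR. The median log2 difference of the 11 was 0.04 in young and 0.02 in old muscle, against -0.01 and 0.01 over all genes.

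Eaf1, a cofactor of ELL proteins, had the lowest log2 value of the list in young muscle, -0.36 ± 0.106 (edgeR adjusted p = 0.246), with 22.7 to 29.1 CPM in sedentary and 19.2 to 19.6 CPM in trained libraries. The kinase gene Cdk9 had 0.07 ± 0.104 in young muscle (edgeR adjusted p = 0.819) and its cyclins Ccnt1 and Ccnt2 -0.01 ± 0.113 and 0.04 ± 0.0888. Aff3, a further scaffold gene of the family, had 0.62 ± 0.365 (edgeR adjusted p = 0.497) at only 2.19 to 7.39 CPM. In old muscle Mllt3, a reader of acylated histones, had the smallest unadjusted p of the list, with a log2 difference of -0.27 ± 0.1 (edgeR adjusted p = 0.467). For the difference between the responses, 0 of 11 passed with edgeR, 2 had an unadjusted p under 0.05 (15.4% of all genes), DESeq2 called 1 and limma voom 0, and 0.0523% of all genes were called with edgeR.

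**Figure D4:**
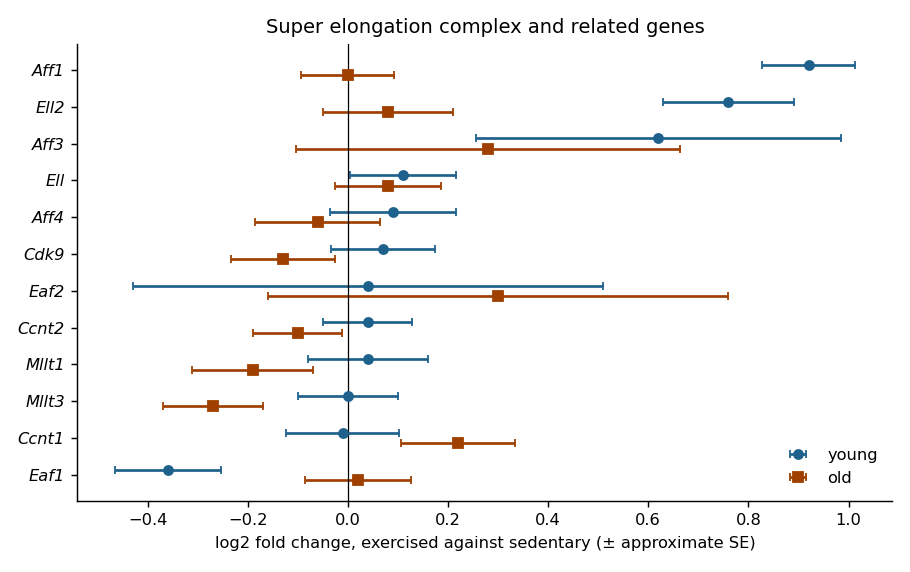
Log2 fold change of trained against sedentary muscle (horizontal axis, with approximate SE) for Aff1 and the 11 tested genes of the complex list (vertical axis), in young (circles) and old (squares) mice. Aff1 and Ell2 stand at 0.92 and 0.76 in young muscle and at 0.00 and 0.08 in old muscle; Aff3 and Eaf2 have wide errors.

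Pathways around the members were followed in 4 further lists. All had 0 genes past the edgeR threshold with training in young and in old muscle and in the difference between the responses. In young muscle the 2 genes past it were Aff1 and Cep85l, which the lists leave out, so 0 there was fixed in advance. It says nothing about these lists. The rapidly induced genes are of the stress and growth factor kind named above, and whether each needs the complex was not tested. In young muscle an unadjusted p under 0.05 was reached by 1 of 27 genes of P-TEFb control, pausing and elongation and 3 of 12 rapidly induced genes. It was also reached by 2 of 25 centrosome genes and 6 of 20 endurance training genes, against 13% of all genes. DESeq2 called 0, 0, 0 and 2 of them, where over all 15304 genes it called 111 higher and 118 lower, and limma voom 0, 0, 0 and 1, where it called 6 higher over all genes. In old muscle 1 gene of each list had an unadjusted p under 0.05, against 8.59% of all genes, and neither DESeq2 nor limma voom called any. For the difference between the responses, 1, 2, 1 and 7 genes had an unadjusted p under 0.05, against 15.4% of all genes, DESeq2 called 0, 0, 0 and 3, where it called 240 higher and 198 lower over all genes, and limma voom 0 in each. The median log2 difference of the rapidly induced genes in young muscle was -0.39, and their values reached from -3.20 for Egr3, an early growth response gene (edgeR adjusted p = 0.273), to 0.44 for Jun and Hspa1a. The pausing list had a median of 0.04, and the centrosome list a median of 0.04. The endurance list had a median of -0.04, with 8 of its 20 genes above 0 and 12 below, from -1.17 to 1.95. In the endurance list Ppargc1a, a coactivator of mitochondrial genes, was at 33.6, 28.6 and 42.8 CPM in young sedentary and 138, 74.3 and 89 CPM in young exercised libraries, a log2 difference of 1.52 ± 0.231 (edgeR adjusted p = 0.0631). Ucp3, a mitochondrial carrier of muscle, went from 64.6, 79.5 and 66.6 CPM to 309.6, 229 and 275 CPM, a log2 difference of 1.95 ± 0.262 (edgeR adjusted p = 0.0631), and the young groups of either gene did not overlap. In that list 6 genes were higher in every trained young library and 1 was lower, where 9.53% of all genes were higher.

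The genes most like Aff1 and Cep85l were taken by Pearson's r of log2 CPM over the 12 libraries, which share depth, scaling and groups. For Aff1 they were Fem1a (r = 0.90), the amino acid transporter gene Slc7a8 (0.90), the ubiquitin-conjugating enzyme gene Cdc34 (0.89), Ppargc1a (0.89), Slc35e4 (0.87) and Ttn, the gene of titin (0.87). For Cep85l they were Trim63 (0.93), which encodes the muscle ubiquitin ligase MuRF1, Cops8 (0.89), Ucp3 (0.89), Tusc2 (0.89), Ppargc1a (0.88) and the phosphodiesterase gene Pde4d (0.88). Ppargc1a stood on both lists. By Spearman's rank correlation, 3 of the 6 genes of each list stayed among the top 6, and Ppargc1a (rho = 0.77 with Aff1 and 0.71 with Cep85l) was in neither.

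Among the members themselves, Aff1 and Cep85l had r = 0.86 over the 12 libraries, Ell2 had 0.86 with Aff1 and 0.87 with Cep85l, and Aff4 and Ell had 0.36 and 0.44 with Aff1 and 0.19 and 0.23 with Cep85l. Aff1 and Cep85l were chosen for the same pattern over the groups, so a high r between them follows from the choice. The other r values also include the differences between groups. The like genes differed in size of the difference between the young groups. Trim63 was at 218 to 277 CPM in young sedentary and 525 to 727 CPM in young exercised libraries, and Slc7a8 at 10.3 to 23.6 and 30.4 to 37 CPM. Cdc34, at 209.7 to 222 and 261 to 267 CPM, and Cops8, at 72.7 to 76.8 and 83.1 to 91.2 CPM, had the same order with small differences. A high r with Aff1 or Cep85l thus went with differences of unlike size.

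**Figure D5:**
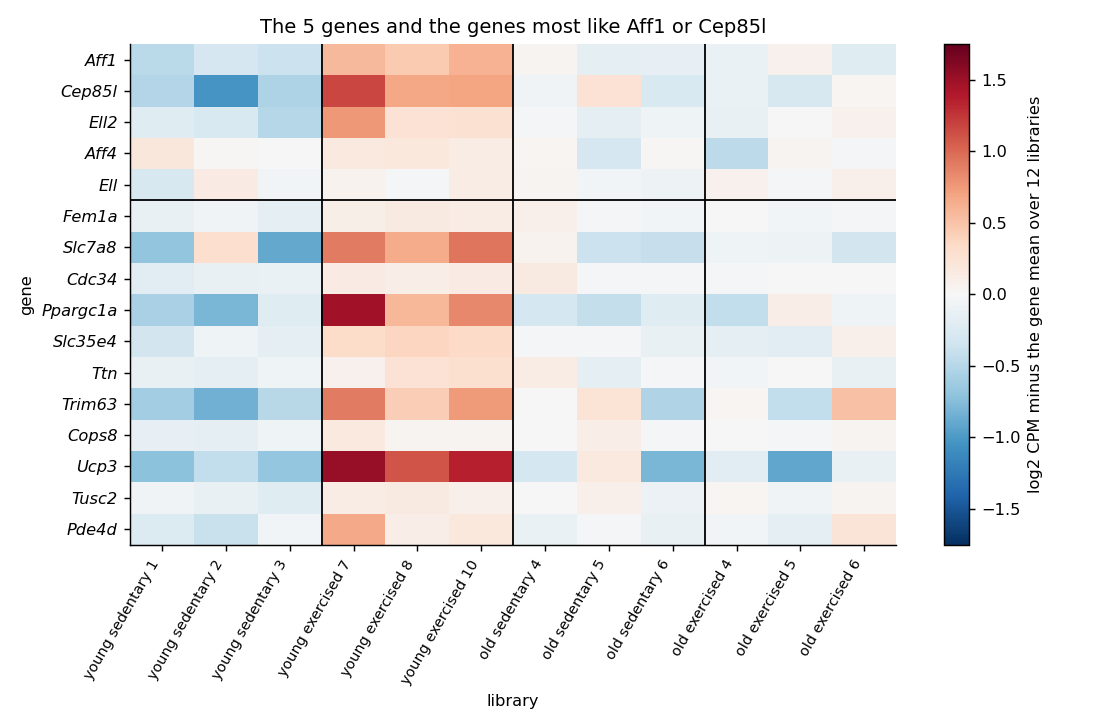
Log2 CPM minus the mean of the gene over the 12 libraries (colour) for the 5 genes, above the line, and the genes most like Aff1 or Cep85l, below it (vertical axis), in each library (horizontal axis, groups separated by lines). Aff1, Cep85l and Ell2 are low in the young sedentary and high in the young exercised libraries, and the genes below the line, chosen for likeness to Aff1 or Cep85l, mostly follow, except that Slc7a8 is above its mean in young sedentary replicate 2; Aff4 and Ell show no such block.

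Age was compared in sedentary and in exercised muscle with the same libraries, so its values are not independent of those with training. In sedentary muscle old libraries exceeded young ones by a log2 difference of 0.29 ± 0.0931 for Aff1 and 0.67 ± 0.183 for Cep85l. In exercised muscle old libraries lay below young ones, at -0.62 ± 0.0931 for Aff1 and -0.98 ± 0.181 for Cep85l. The sign of the age difference thus turned with training for both genes, and the groups did not overlap in either comparison. Both genes were chosen for a rise in young muscle and none in old muscle, and much of this turn follows from that choice. Of all genes, 15.8% were higher in every old sedentary library and 15.1% lower in every old exercised one. For Ell2 the value in sedentary muscle was 0.23 ± 0.131 (edgeR adjusted p = 0.281), with every old library above every young one, as for 15.8% of all genes.

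In exercised muscle Ell2 fell with age by a log2 difference of -0.46 ± 0.13 (0.727-fold, 95% interval 0.59 to 0.896, edgeR adjusted p = 0.0448), where 9.87% of all genes were called and 15.1% were lower in every old library. This call was lost when any of the 6 libraries was left out, with log2 values from -0.54 to -0.27 and adjusted p-values up to 0.148 in edgeR, the last without young exercised replicate 7. Aff4 had -0.15 ± 0.125 in sedentary (edgeR adjusted p = 0.474) and -0.29 ± 0.125 in exercised muscle (edgeR adjusted p = 0.167), where every old library was below every young one. Ell had 0.02 ± 0.106 and -0.01 ± 0.106 (edgeR adjusted p = 0.911 and 0.968), and the sign of both turned under some alternatives.

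Over the complex list, 0 of 11 genes passed with age in sedentary muscle in edgeR, where 10% of all genes did, 2 had an unadjusted p under 0.05 (27.4% of all genes), DESeq2 called 1 and limma voom 0. In exercised muscle 1 of 11, Ell2, passed with edgeR. Of the 27 pausing and elongation genes, 3 rose and 0 fell with age in sedentary muscle, where 4.46% of all genes rose and 5.59% fell: the DSIF subunit gene Supt5 (log2 0.48 ± 0.0875, edgeR adjusted p = 0.00889), the histone chaperone gene Supt6 (0.31 ± 0.0781, edgeR adjusted p = 0.0304) and Cdc73 of the PAF1 complex (0.36 ± 0.103, edgeR adjusted p = 0.0447). In exercised muscle, where 4.6% of all genes rose and 5.27% fell, 0 rose and 2 fell, both of the PAF1 complex: Ctr9 (-0.31 ± 0.081, edgeR adjusted p = 0.0326) and Leo1 (-0.45 ± 0.11, edgeR adjusted p = 0.0251). With single libraries left out, these counts were 1 to 2 in sedentary muscle (1 without young sedentary replicate 1 or 3 or old sedentary replicate 4 or 5) and 0 to 2 in exercised muscle (0 without young exercised replicate 8 or 10 or old exercised replicate 6, and 1 without young exercised replicate 7 or old exercised replicate 5). Among 25 centrosome genes, Tubgcp2 rose in sedentary muscle (0.36 ± 0.1, edgeR adjusted p = 0.0435), and in exercised muscle Tubg1 rose (0.27 ± 0.0665, edgeR adjusted p = 0.0275) and Cep63 fell (-0.49 ± 0.097, edgeR adjusted p = 0.0105). The centrosome count was 0 in sedentary muscle without young sedentary replicate 1 or 3 or old sedentary replicate 4 or 5, and 1 in exercised muscle when any 1 of the young exercised libraries or old exercised replicate 5 or 6 was left out. Of the rapidly induced genes, Jun rose (0.67 ± 0.156, edgeR adjusted p = 0.0236) and Hsp90aa1 fell (-0.67 ± 0.136, edgeR adjusted p = 0.0131) with age in sedentary muscle, a count of 2 that became 1 without young sedentary replicate 2 or 3 or old sedentary replicate 4, and 0 without old sedentary replicate 5. In exercised muscle 0 of 12 passed, with 2 at an unadjusted p under 0.05 (24.7% of all genes), 1 by DESeq2 and 0 by limma voom. Ppargc1a and Ucp3, named as known training genes, fell with age in exercised muscle by log2 differences of -1.13 ± 0.229 (edgeR adjusted p = 0.0132) and -1.72 ± 0.26 (edgeR adjusted p = 0.0043), and 1 other gene of the 20 passed there, Nr4a3, an orphan nuclear receptor gene (-2.64 ± 0.62, edgeR adjusted p = 0.0294), which alone of the 20 also fell in sedentary muscle (-2.50 ± 0.651, edgeR adjusted p = 0.0431). That count of 1 in sedentary muscle was 2 without young sedentary replicate 2 and 0 when any other of the 6 libraries was left out.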

How the data were processed

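Raw counts for each gene were deposited, 1 file to a library, per the file headers. The submitters' processing notes list STAR 2.5.2b, Trimmomatic 0.36, bcl2fastq 2.20.0.422, featureCounts, Subread 1.5.2 and DESeq2, with the build GRCm38. Not given in the sources used here are the annotation release, strand setting and treatment of multiply aligned reads, and reads from paralogs or from the opposite strand (Pln within Cep85l) could be counted in ways that cannot be seen here. A symbol was found for 48970 of 49315 identifiers, and all 5 members matched.

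The analysis used edgeR 4.0.16 in R 4.3.3: filterByExpr (minimum count 10, minimum total 15) left 15304 genes, TMM set the scaling, and all 12 libraries entered 1 robust quasi-likelihood fit with a coefficient for each group (8 residual degrees of freedom, common biological coefficient of variation 0.207). Adjusted p-values are Benjamini-Hochberg values over all genes tested, with a threshold of 0.05. Standard errors are approximate, from the log2 fold change and the F statistic, and 95% intervals use the t quantile at 8 degrees of freedom. No interval was adjusted for the number of genes. Log2 CPM for correlations used a prior count of 2. DESeq2 1.42.0 and limma 3.58.1 (voom) served as alternatives, beside other scalings, filters, a sex term and leaving out libraries. The fit was tested on simulated data.

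The members and gene lists were chosen with earlier results of these data known. Named are the members, the genes next to or within Aff1 and Cep85l, the 6 named genes most correlated with each, the list genes past the threshold, genes of the complex list, and Ppargc1a and Ucp3. Egr3, Hspa1a, Krt5, Adipoq and Myh7 were chosen after their values were seen. No label says whether the libraries of a group are from separate animals, so p-values measure the spread between libraries, and no 2 agreed within sampling noise (chi-square over degrees of freedom 10.8 to 75). At 23.3 to 27.6 M counts, the members had at least 235 counts in every library. Promoter sequences are from RefSeq (GRCm38.p6). No protein sequence was used here.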

Additional observations from a re-analysis of the deposited data

How the results depend on the processing

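The log2 differences of Aff1 and Cep85l with training in young muscle kept their sign under all alternatives run. They were 0.79 to 0.92 and 1.41 to 1.55 under other scalings, filters, tools and a sex term, and 0.88 to 0.96 and 1.37 to 1.64 without single libraries. These values chose the genes, and every young exercised library exceeded every young sedentary one. The sign could therefore hardly turn, and the ranges are a description that lends the choice no support. Plain library totals moved Aff1 to 0.79 in young muscle and to -0.75 for the difference between responses, as the median of all genes moved from -0.01 to -0.14 and from 0.02 to 0.19. For Ell2 in young muscle, 3 settings passed the threshold: no filter (0.77), DESeq2 (0.77) and the sex term (0.75), and for the difference between responses DESeq2 did (-0.69). The fall of Ell2 with age in exercised muscle missed it under plain library totals (-0.38), a filter at a mean of 1 CPM (-0.45), limma voom (-0.44), a fit of the compared groups alone (-0.45, adjusted p = 0.102) and with any 1 library left out (-0.54 to -0.27). Alternatives gave the Ell2 adjusted p from 0.00999 to 0.148 there.

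Values of Aff4 and Ell near 0 changed sign. Under plain library totals Aff4 was at -0.05 in young muscle and 0.03 for the difference, and Ell at -0.02, 0.13, -0.08 (age, sedentary) and 0.06 (age, exercised). The sex term gave Ell -0.03 with age in sedentary muscle and upper-quartile scaling gave it 0.00 in exercised muscle. Without single libraries Aff4 ranged from -0.16 to 0.09 in old muscle, and Ell from -0.14 to 0.06 for the difference, from -0.08 to 0.13 with age in sedentary and from -0.04 to 0.04 in exercised muscle.

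The count of complex genes past the threshold was 1 in young muscle with no filter, DESeq2 or the sex term, 1 for the difference with DESeq2, and 1 with age in sedentary muscle with DESeq2 or the sex term. With age in exercised muscle it was 2 with DESeq2, 0 with plain totals, the 1 CPM filter, limma voom or the compared groups alone, and 0 to 1 without single libraries. Over all genes, calls in young muscle were 2 with edgeR, 111 higher and 118 lower with DESeq2 and 6 higher with limma voom. With age, other settings gave 1 to 4 calls in sedentary and 1 to 3 in exercised muscle for the pausing list (3 and 2 in edgeR as reported), 2 to 4 and 0 to 1 for the rapidly induced genes (2 and 0), 0 to 2 and 1 to 2 for the centrosome list (1 and 2), and 0 to 2 and 2 to 6 for the endurance list (1 and 3). The cause of these differences was not tested. Replicate numbers are shared by the old groups only, and same-numbered libraries did not deviate together (r = -0.179, -0.037 and 0.0467 over 9296 genes). A replicate block in old muscle gave 0.01 for Aff1, -0.09 for Cep85l, -0.06 for Aff4, 0.08 for Ell and 0.08 for Ell2, and calls over all genes went from 54 higher and 3 lower, in a fit of the same libraries, to 0.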

Other observations

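Young exercised replicate 7 held the highest level of the 12 libraries for Cep85l (42.3 CPM), Ell2 (67.4 CPM), Ppargc1a (138 CPM), Ucp3 (309.6 CPM) and Trim63 (727 CPM), but not for Aff1, whose highest level was in replicate 10 (105 CPM). It was also the trained young library with Ddx3y above Xist. Without it, Cep85l was at 30.3 and 30.4 CPM and Ell2 at 47.7 and 48.2 CPM in young exercised muscle, still above every old library. A library of that sex signal among the young sedentary ones, replicate 2, had the lowest Cep85l level of the 12 (9.18 CPM).

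Old exercised libraries had a sum of 13.5 to 17.8 CPM over 6 neuron markers, against at most 5.99 CPM in the other groups, and Igkc, an immunoglobulin gene, was at 295 CPM in old exercised replicate 6. In that library Aff1 was at 59.7 CPM, Cep85l at 19.2 CPM and Ell2 at 42.3 CPM, the lowest of its group for Aff1 and the highest for the other 2. The part of these markers in the old exercised values of the members was not tested.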
